A study of Caenorhabditis elegans with 53 samples.

Results

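lin-4 and miR-237 are the microRNAs of the lin-4 family in Caenorhabditis elegans. The rows described here are the 4 microRNA rows listed under those names, the 5p and 3p arms of each, out of 439 microRNA rows in every one of 8 small RNA tables. All 4 rows were listed in every table, which gives 188 values over 47 libraries. A microRNA is cut from a hairpin precursor by Dicer as a short duplex. One strand, the guide, is kept by an Argonaute protein and directs it to messenger RNAs, while the other strand, the passenger, is usually discarded. For both lin-4 and miR-237 the guide is the 5p arm. lin-4 was the founding microRNA: it appears during the first larval stage and lowers the proteins of lin-14, a nuclear factor, and lin-28, an RNA-binding protein, to move the larva on to later stages. miR-237 has the same seed, the stretch near its 5′ end that pairs with targets.

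The groups, each of 2 or 3 libraries, were as follows. Wild-type (N2) mixed-stage embryos (2 libraries) were set against wild-type gravid adults (3), and rde-1(ne219) adults (3) against wild-type adults (3). RDE-1 is the Argonaute that binds siRNAs cut from introduced double-stranded RNA, the first step of RNA interference (RNAi). Co-immunoprecipitates (co-IPs) of GFP::RDE-1, from the allele rde-1(cmp133), were set against lysates of such animals (inputs). This was done with no RNAi food in the labels (2 and 2) and on nrfl-1 RNAi (3 and 3). The labels do not say which co-IP and input shared a lysate. Animals of that genotype on dcr-1 RNAi (2), which targets Dicer, were set against L4440 (2), the empty vector used as the RNAi control. ALG-1 and ALG-2 are the main microRNA Argonautes of the worm. Co-IPs of GFP::ALG-1, from alg-1(ap423), were set against inputs on L4440 (2 and 2), on rde-1 RNAi (2 and 2) and on nrfl-1 RNAi (3 and 3). Co-IPs of GFP::ALG-2, from alg-2(tor139), which tags the alg-2b form, were set against inputs on L4440 and on rde-1 RNAi (2 and 2 each). All animals except the embryos were gravid hermaphrodites, grown for 72 to 75 hours from synchronized larvae at 20 °C, so adult libraries also hold the embryos the adults carry. Messenger RNA was sequenced from rde-1(ram40) and wild-type adults (3 each). Nothing in the labels says which replicates came from separate cultures, so p-values measure the spread between these samples, which may be technical.

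Several libraries stood apart from their labels. The 3 adult libraries set against embryos were identical, in all 25921 shared rows, to the 3 wild-type libraries set against rde-1(ne219), although the labels name pyrophosphohydrolase treatment for one set and none for the other. Both comparisons therefore share their 3 control libraries, and 44 small RNA libraries are distinct. No such treatment is named for the embryos, so whether embryo and adult libraries were treated alike cannot be told. The GFP::RDE-1 co-IPs and inputs with no RNAi label carried rows of nrfl-1 siRNAs (53693 RPM ± 19274 in co-IPs and 372 RPM ± 18.9 in inputs, SD, n = 2 each) and of oma-1 siRNAs (1669 ± 652 and 11.6 ± 0.841). GFP::RDE-1 libraries labelled nrfl-1 RNAi had 32497 RPM ± 2536 of nrfl-1 siRNAs in co-IPs and 576 RPM ± 24.5 in inputs (SD, n = 3 each). Whether both GFP::RDE-1 experiments shared a food cannot be told from the labels. The columns of the dcr-1 RNAi table also name RDE-4::FLAG and an input, and an HA tag is named in the columns for ALG-1 with nrfl-1 RNAi, which the labels do not. The siRNA row of the RNAi target was high where the labels name that target: dcr-1 siRNAs had 16861 RPM ± 157 on dcr-1 RNAi and 64.1 RPM ± 10.1 on L4440 (SD, n = 2 each). RPM are the library-scaled read values as deposited, and 1 RPM stood for an estimated 10.8 to 31.8 reads across libraries (median 17.8). MicroRNA rows held 26.2% to 99.9% of the listed RPM of a library, so a change in RPM depends on what else was in the library. For that reason fold changes are also given after rescaling every library to the same microRNA sum. Each comparison was fitted with limma over all features of its table with a mean of at least 1 RPM, and p-values were adjusted over all of them by the Benjamini-Hochberg method, with 0.05 as the threshold for a feature to pass.

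lin-4-5p was an abundant adult microRNA. It averaged 5968 RPM ± 400.1 (SD, n = 3) in wild-type adults, where it ranked 11th or 12th of 439 microRNA rows in each library, and miR-237-5p averaged 1872 RPM ± 281 and ranked between 24 and 28. The tables were normalized separately and listed different rows, so levels were set across them only as shares of microRNA RPM. Over the 19 distinct groups, lin-4-5p ran from 3.52% ± 0.256 of microRNA RPM in rde-1(ne219) adults to 0.000322% ± 0.00009 in embryos. Wild-type adults followed the mutant with 2.85% ± 0.123, then came the co-IPs of ALG-1 fed L4440 (1.93% ± 0.159) or rde-1 RNAi (1.75% ± 0.297), whose libraries overlapped. The inputs of both ALG-1 and ALG-2 on L4440 and rde-1 RNAi lay together with the GFP::RDE-1 inputs, with group means between 0.796% and 0.918%. The GFP::RDE-1 co-IPs with no RNAi label (0.756% ± 0.236) came next and overlapped them. Below lay the ALG-2 co-IPs (0.417% ± 0.0018 on L4440, 0.371% ± 0.00624 on rde-1 RNAi), and the libraries of the nrfl-1 and dcr-1 RNAi tables lay lowest of the adults, between 0.101% and 0.314% by library. Of the neighbours in this order, 9 pairs overlapped in their libraries and 9 did not.

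miR-237-5p varied less between adult groups. Its share was highest in the ALG-1 co-IPs on L4440 (1.27% ± 0.00715, n = 2) and in rde-1(ne219) adults (1.23% ± 0.137, n = 3), which overlapped, and lowest among adult groups in the ALG-2 co-IPs on L4440 (0.284% ± 0.00413) and on rde-1 RNAi (0.289% ± 0.0176) and the GFP::RDE-1 inputs (0.289% ± 0.00518). Embryos had 0.00114% ± 0.000427. Of its neighbours in the order, 14 pairs overlapped and 4 did not. The miR-237 passenger, miR-237-3p, was listed at 0 to 15.4 RPM over all libraries, and the lin-4 passenger, lin-4-3p, at 0 to 1.23 RPM. At these levels lin-4-3p, and miR-237-3p in embryos, rest on few reads. lin-4-3p averaged less than 1 RPM in every comparison and so was not tested.

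**Figure D1:**
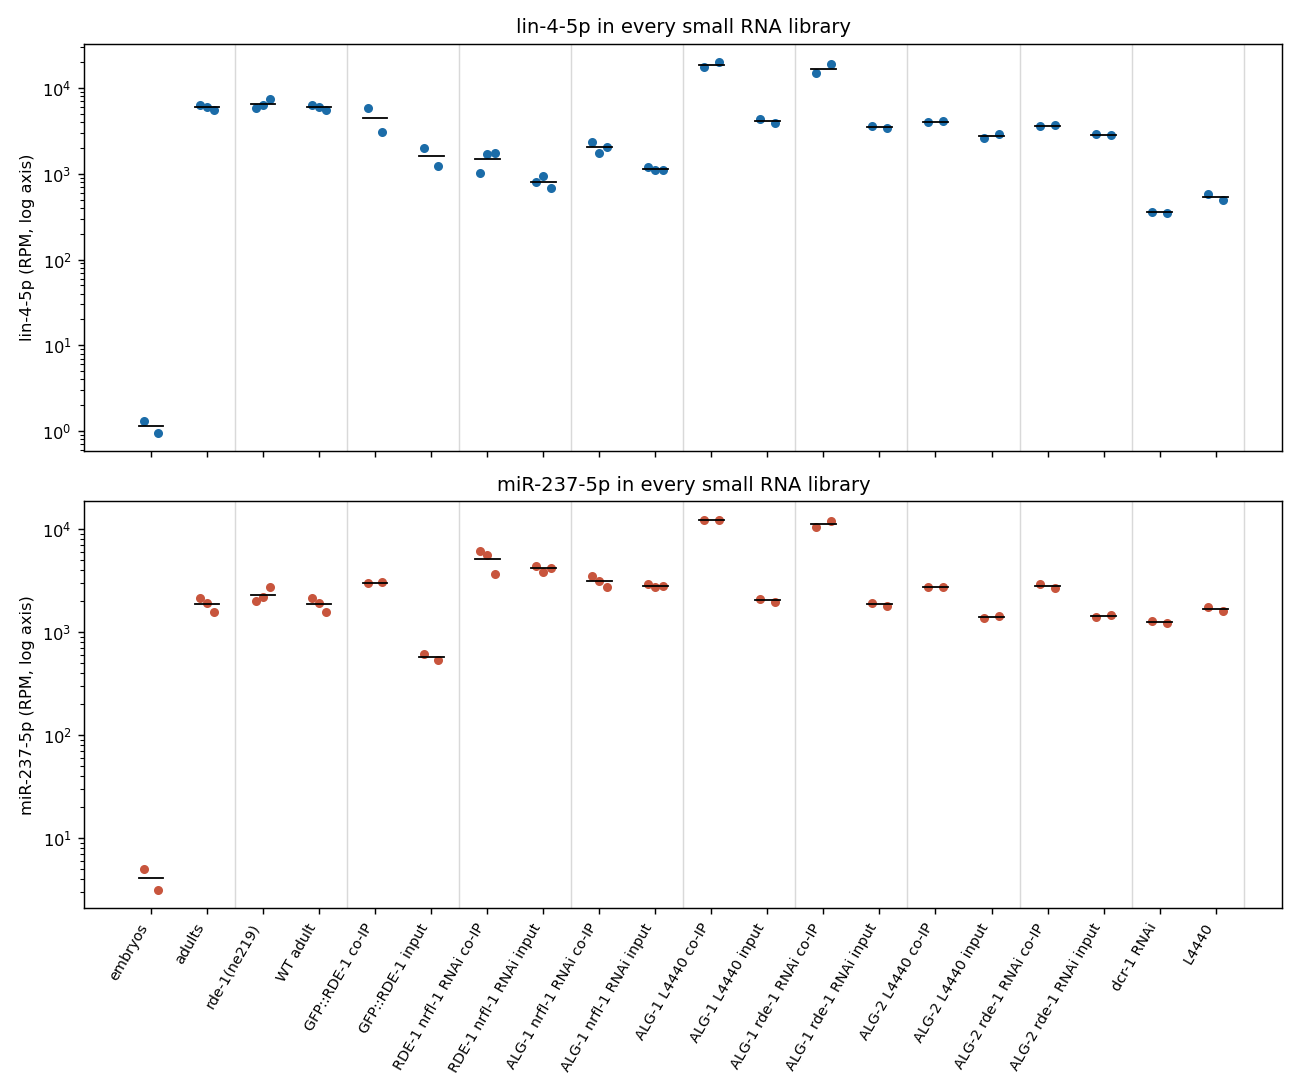
RPM of lin-4-5p (upper panel) and miR-237-5p (lower panel) in each small RNA library on log axes; points are libraries, bars are group means, and vertical lines part the pairs of groups that were compared. Both microRNAs are lowest in the 2 embryo libraries, and the adults and WT adult columns hold the same 3 libraries.

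The largest difference in these rows was that between embryos and adults. lin-4-5p had 1.32 and 0.96 RPM in the 2 embryo libraries, against 6381, 5940.2 and 5582 RPM in the 3 adult libraries. Its log2 fold change, on the log2(RPM + 1) scale used throughout, was -11.45 (SE 0.09, limma adjusted p 4.2e-10), which placed it 220th of 221 microRNA rows tested, counted from the largest rise. miR-237-5p had 4.95 and 3.13 RPM in embryos, against 2129, 1915 and 1572 RPM in adults. It fell by 8.55 on the log2 scale (SE 0.17, limma adjusted p 2.73e-08) and stood one place above lin-4-5p, at 219 of 221. No embryo library came near an adult one for either guide. Rescaled to the microRNA sum, the changes were -12.01 for lin-4-5p and -9.22 for miR-237-5p, where 89.7% of all features passed.

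The passengers followed at lower levels. miR-237-3p had 0 and 0.13 RPM in embryos, against 1.9, 1.75 and 1.39 RPM in adults (log2 fold change -1.33, SE 0.20, limma adjusted p 0.000432). lin-4-3p was listed at 0 in both embryo libraries, where 3 reads correspond to 0.209 and 0.192 RPM, and at 0.35, 0.41 and 0.58 RPM in adults. In this comparison 77.7% of all features tested, and 87.8% of the microRNA rows, were past the threshold. The median log2 fold change was 1.09 over microRNA rows and -0.67 over all features. Embryo and adult libraries may differ in pyrophosphohydrolase treatment, and its part in these changes was not tested.

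Temporal microRNAs of the let-7 family fell with them. All 4 of let-7-5p, miR-48-5p, miR-84-5p and miR-241-5p, which act after lin-4 in larval timing, were lower in embryos (limma), with log2 fold changes from -7.78 for miR-48-5p to -4.46 for miR-84-5p. Of the 8 guides of the mir-35 family, an embryonic family used here as a marker of embryo content, 7 were higher and 1, miR-41-3p, did not pass (0.41, limma adjusted p 0.59). Rescaled to the microRNA sum, all 4 let-7 family guides stayed lower, and of the mir-35 family 6 were higher and 1 lower. The family summed to 115068 and 145577 RPM in embryos, against 35330 to 41383 RPM in adults, and 36.4% ± 3.9 of microRNA RPM against 18.8% ± 1.7. In whole-animal RNA, fewer cells of a type and less RNA per cell cannot be told apart.

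In rde-1(ne219) adults neither guide passed against wild type. lin-4-5p had 5893, 6369 and 7521 RPM in the mutant, against 6381, 5940.2 and 5582 RPM in wild type, and the groups overlapped (log2 fold change 0.14, SE 0.12, limma adjusted p 0.365). miR-237-5p had 1994, 2181 and 2735 RPM in the mutant, against 2129, 1915 and 1572 RPM in wild type (0.30, SE 0.14, limma adjusted p 0.0856). This second difference passed when libraries were rescaled to the microRNA sum (0.46, limma adjusted p 0.00475, with 54.9% of all features passing on that scale) and when rde-1(ne219) replicate 1 was left out (0.39, limma adjusted p 0.0284).

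The passenger of miR-237 was higher in the mutant. miR-237-3p had 4.79, 4.47 and 6.57 RPM in rde-1(ne219), against 1.9, 1.75 and 1.39 RPM in wild type, without overlap (log2 fold change 1.22, SE 0.15, limma adjusted p 6.62e-05). Its ratio of mean RPM was 3.14, and it ranked 4th of the 189 microRNA rows tested. In the same comparison 52.4% of all features and 28% of microRNA rows passed. As a share of both arms, miR-237-3p made up 0.228% ± 0.02 in rde-1(ne219) and 0.0896% ± 0.0015 in wild type (SD, n = 3 each). The shares did not overlap, with an exact permutation p of 0.1, the smallest that 3 against 3 libraries allow (0.444 adjusted over the 12 comparisons of this share). lin-4-3p had 0.42, 0.24 and 0.9 RPM in the mutant, against 0.35, 0.41 and 0.58 RPM in wild type.

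Other temporal microRNAs mostly did not pass in rde-1(ne219): of the 4 let-7 family guides, only miR-241-5p was higher (log2 fold change 0.62, limma adjusted p 0.022). All 8 mir-35 family guides were lower, between -0.88 and -0.41, and the family summed to 24802 to 28666 RPM in the mutant, against 35330 to 41383 RPM in wild type. On the scale of the microRNA sum, 5 of those 8 were lower and 2 of the let-7 family were higher. Whether the embryo content of the adults plays a part in the values of lin-4 and miR-237 was not tested.

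GFP::ALG-1 co-IPs were rich in both guides. On L4440, lin-4-5p had 17585 and 19877 RPM in the co-IPs, against 4414 and 3928 RPM in the inputs, a log2 fold change of 2.17 (SE 0.21, limma adjusted p 2.17e-07). miR-237-5p had 12367 and 12344 RPM in the co-IPs, against 2117 and 1988 RPM in the inputs (2.59, SE 0.22, limma adjusted p 4.56e-08). Among the 222 microRNA rows tested, miR-237-5p ranked 1st and lin-4-5p 5th, above a median of 0.40 for microRNA rows and -2.52 for all features. After rescaling to the microRNA sum, which rises in the co-IPs, lin-4-5p remained higher by 1.07 and miR-237-5p by 1.49 (limma adjusted p 0.000192 and 1.29e-05, with 97.9% of all features passing). Nearly every feature moved in this comparison: 98.5% of all features and 82.4% of microRNA rows passed, with only 3.23% of the calls higher in the co-IPs.

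The miR-237 passenger went the other way. miR-237-3p had 2.76 and 2.82 RPM in the ALG-1 co-IPs on L4440, against 6.5 and 5.46 RPM in the inputs (log2 fold change -0.88, SE 0.18, limma adjusted p 0.000366). It ranked 154th of 222. The direction of this row depended on the scale: it was -1.76 with libraries rescaled to the microRNA sum and 1.81 with libraries centred on their median feature. lin-4-3p was listed at 0 in both co-IPs, where 3 reads correspond to 0.175 and 0.18 RPM, and at 0.65 and 1.13 RPM in the inputs. As a share of both miR-237 arms, which does not depend on the scale of the library, the passenger made up 0.0226% ± 0.00037 in the co-IPs, against 0.29% ± 0.023 in inputs (SD, n = 2 each). These shares did not overlap, although 2 against 2 libraries cannot reach an exact permutation p under 0.333.

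On rde-1 RNAi both guides were again higher in the ALG-1 co-IPs than in the inputs. lin-4-5p had 14898 and 18909.6 RPM in the co-IPs, against 3609 and 3390.2 RPM in the inputs (log2 fold change 2.26, limma adjusted p 1.41e-07). miR-237-5p had 10449 and 12073 RPM in the co-IPs, against 1932 and 1811 RPM in the inputs (2.59, limma adjusted p 4.7e-08). They ranked 3rd and 1st of 222 microRNA rows, of which 81.5% passed, as did 98.5% of all features. miR-237-3p had 2.5 and 3.31 RPM in the co-IPs, against 5.25 and 5.39 RPM in the inputs (-0.70, limma adjusted p 0.00209, again with the opposite sign, 1.98, after median centring). Rescaled to the microRNA sum, 97.8% of all features passed. The difference in enrichment between rde-1 RNAi and L4440 was 0.10 for lin-4-5p (SE 0.30, limma adjusted p 0.959), -0.005 for miR-237-5p (SE 0.31, limma adjusted p 0.998) and 0.17 for miR-237-3p (SE 0.26, limma adjusted p 0.88), where 0.344% of all features passed. In the inputs, none of the 3 tested rows passed between rde-1 RNAi and L4440, where 0.287% of all features did: lin-4-5p gave -0.25 (SE 0.21), miR-237-5p -0.13 (SE 0.22) and miR-237-3p -0.14 (SE 0.18).

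**Figure D2:**
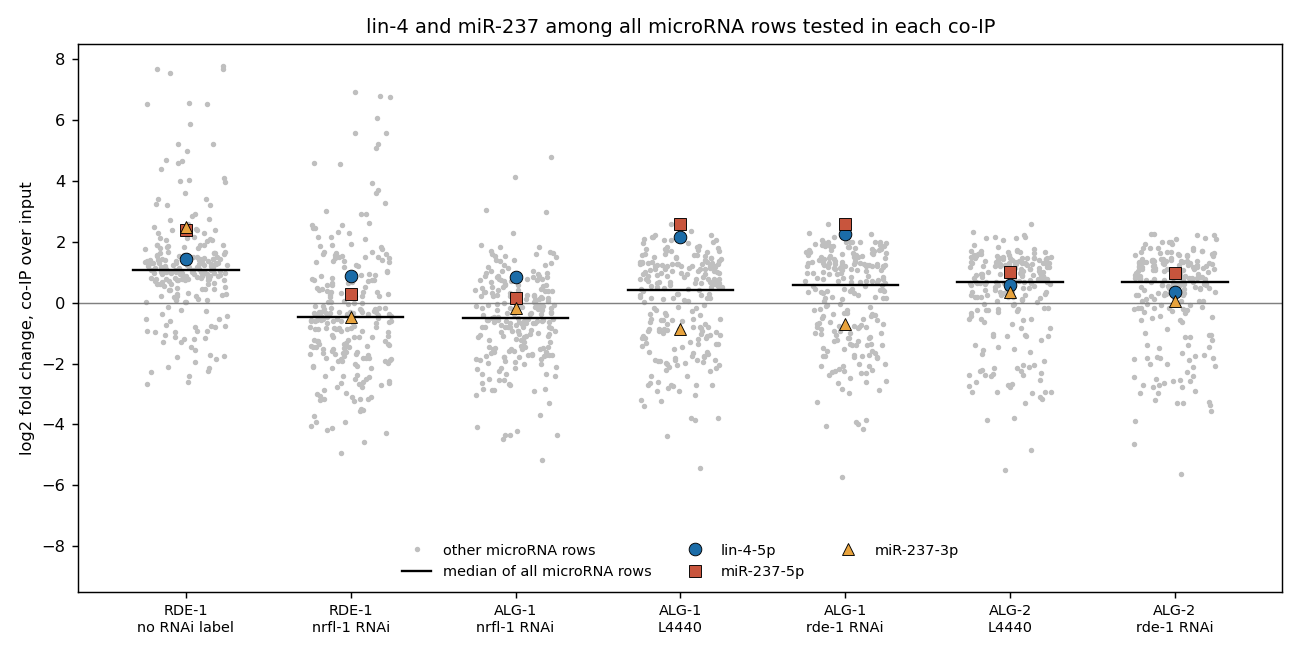
log2 fold change (log2(RPM + 1) scale) of every microRNA row tested in each co-IP over its input; grey points are other microRNA rows and black bars the median of all microRNA rows. miR-237-5p (square) tops the ALG-1 columns on L4440 and rde-1 RNAi with lin-4-5p (circle) close behind, while miR-237-3p (triangle) lies below 0 there.

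In GFP::ALG-2 co-IPs on L4440 both guides were higher than in the inputs in RPM and lower as a share of microRNA RPM. lin-4-5p had 4040.2 and 4078 RPM in the ALG-2 co-IPs, against 2583 and 2894 RPM in the inputs (log2 fold change 0.57, SE 0.18, limma adjusted p 0.00488). miR-237-5p had 2778 and 2764 RPM in the co-IPs, against 1360 and 1422 RPM in the inputs (0.99, SE 0.19, limma adjusted p 5.08e-05). Their ranks were 121 and 81 of 218 microRNA rows, on either side of the median of 0.67. The passing share was 98.7% over all features and 83% over microRNA rows.

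The direction of these ALG-2 changes depended on the scale. After rescaling to the microRNA sum, lin-4-5p was lower in the co-IPs by 0.95 on the log2 scale and miR-237-5p by 0.52 (log2 fold changes -0.95 and -0.52, limma adjusted p 7.17e-05 and 0.0052, with 98.2% of all features passing). MicroRNA rows held 99.9% ± 0.036 of the listed RPM in these co-IPs, against 85.3% ± 0.69 in their inputs (SD, n = 2 each), and the listed RPM of the inputs summed to 379889 and 418481. Leaving out L4440 input replicate 1 also ended the call for lin-4-5p (0.49, limma adjusted p 0.0567). miR-237-3p had 4.31 and 3.72 RPM in the co-IPs, against 3.56 and 2.32 RPM in the inputs (0.36, SE 0.21, limma adjusted p 0.0945). It passed without L4440 input replicate 1 (0.59, limma adjusted p 0.0358). Rescaled, the same row gave -0.83 (limma adjusted p 0.00575), and centred on the library median it gave 3.06.

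On rde-1 RNAi, lin-4-5p had 3573 and 3682 RPM in the ALG-2 co-IPs, against 2918 and 2810.2 RPM in the inputs, which did not pass (0.34, SE 0.18, limma adjusted p 0.071). miR-237-5p had 2932 and 2707 RPM in the co-IPs, against 1402 and 1465 RPM in the inputs (0.97, SE 0.19, limma adjusted p 6.36e-05). Both were again negative after rescaling, at -1.10 and -0.46, and 98.7% of all features passed as deposited and 98.1% rescaled. miR-237-3p had 4.56 and 2.71 RPM in the co-IPs, against 3.8 and 3.06 RPM in the inputs (0.04, limma adjusted p 0.844; -1.09 rescaled and 2.73 median-centred). The enrichment did not differ past the threshold between rde-1 RNAi and L4440 for lin-4-5p (-0.23, SE 0.25, limma adjusted p 0.946), miR-237-5p (-0.02, SE 0.27, limma adjusted p 1.00) or miR-237-3p (-0.32, SE 0.29, limma adjusted p 0.92), against 0.311% of all features. In the inputs the 3 rows lay between 0.04 and 0.18 on the log2 scale and did not pass, against 0.871% of all features. lin-4-3p was listed at 0 or 0.05 RPM in the 4 ALG-2 co-IPs and at 0.75 to 1.23 RPM in the 4 inputs.

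Reference families were read from the same fits. All 8 mir-35 family guides were lower in the ALG-1 co-IPs on L4440, with a median log2 fold change of -1.07, and all 8 were higher in the ALG-2 co-IPs, with a median of 1.73. The 4 let-7 family guides were higher in both, with medians of 1.26 in the ALG-1 and 1.03 in the ALG-2 co-IPs. Passing was general: 98.5% of all features and 82.4% of microRNA rows passed with ALG-1, and 98.7% and 83% with ALG-2. Only part of this held after rescaling to the microRNA sum, where 97.9% (ALG-1) and 98.2% (ALG-2) of all features passed. In the ALG-1 co-IPs all 8 mir-35 family guides stayed lower (median -2.16), and 1 let-7 family guide was higher (median 0.17). In the ALG-2 co-IPs 4 mir-35 family guides were higher and 1 lower (median 0.22), and 2 let-7 family guides were lower and none higher (median -0.49). ALG-1 and ALG-2 were sequenced in separate tables, and the difference between their enrichments of lin-4 and miR-237 was not tested.

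GFP::RDE-1 co-IPs without an RNAi label held more of both microRNAs than their inputs. lin-4-5p had 5920.4 and 3055 RPM in the co-IPs, against 1989 and 1247 RPM in the inputs (log2 fold change 1.43, SE 0.39, limma adjusted p 0.0136). miR-237-5p had 2978 and 3046 RPM in the co-IPs, against 616 and 535 RPM in the inputs (2.39, SE 0.15, limma adjusted p 5.35e-05). miR-237-3p had 11.7 and 15.4 RPM in the co-IPs, against 1.83 and 1.32 RPM in the inputs (2.50, SE 0.21, limma adjusted p 0.000114). The co-IPs lay above the inputs for all 3 rows, and the 2 co-IPs differed from each other more for lin-4-5p than for miR-237-5p.

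The RDE-1 background was broad: 94.2% of all features passed, 7.37% of them higher, and 79.2% of microRNA rows passed. The median microRNA row rose by 1.08 in log2 terms, with miR-237-3p ranked 31st, miR-237-5p 34th and lin-4-5p 76th of 226. Rescaled to the microRNA sum, miR-237-5p (0.85, limma adjusted p 0.00501) and miR-237-3p (1.32, limma adjusted p 0.00018) remained higher, while lin-4-5p gave -0.10 (limma adjusted p 0.75) and 98.3% of all features passed. The call for lin-4-5p was also lost without co-IP replicate 1 (0.96, limma adjusted p 0.0753), without input replicate 2 (1.10, limma adjusted p 0.0673) and with no filter on low values (limma adjusted p 0.0702). lin-4-3p was listed at 0 in all 4 libraries, where 3 reads correspond to 0.137 to 0.206 RPM.

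That table also had rows for the precursor hairpins. The libraries were made from size-selected small RNA, so whether the reads of these rows are whole hairpins or shorter pieces cannot be told. The mir-237 precursor row (WBGene00003330) had 90.5 and 135 RPM in the RDE-1 co-IPs, against 4.63 and 3.72 RPM in the inputs (log2 fold change 4.43, SE 0.22, limma adjusted p 4.98e-05). It ranked 6th of 110 precursor rows. The lin-4 precursor row (WBGene00002993) had 32.5 and 22.6 RPM in the co-IPs, against 10.8 and 7.57 RPM in the inputs (1.48, SE 0.24, limma adjusted p 0.00164), and ranked 34th. Of the precursor rows, 80.9% passed, with a median of 1.04. How the authors divided reads between a precursor row and its arm rows is not stated.

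On nrfl-1 RNAi, lin-4-5p was higher in the GFP::RDE-1 co-IPs than in the inputs, and neither arm of miR-237 passed. lin-4-5p had 1013, 1723 and 1750.4 RPM in the co-IPs, against 793, 942 and 679 RPM in the inputs (log2 fold change 0.86, SE 0.29, limma adjusted p 0.0159, 59th of 244 microRNA rows). That call was lost without co-IP replicate 2 (0.74, limma adjusted p 0.0804), co-IP replicate 3 (0.73, limma adjusted p 0.0609) or input replicate 3 (0.75, limma adjusted p 0.0672). miR-237-5p had 6184, 5582 and 3706 RPM in the co-IPs, against 4435, 3876 and 4196 RPM in the inputs, which overlapped (0.28, SE 0.23, limma adjusted p 0.267). miR-237-3p had 7.23, 7.77 and 7.5 RPM in the co-IPs, against 12.9, 10.4 and 9.33 RPM in the inputs (-0.47, SE 0.29, limma adjusted p 0.146).

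In this comparison 88.2% of all features and 72.5% of microRNA rows passed, and the median microRNA row was at -0.48. Rescaling to the microRNA sum gave 1.05 for lin-4-5p (limma adjusted p 0.0119) and 0.46 for miR-237-5p (limma adjusted p 0.0583), with 85.1% of all features passing. lin-4-3p had 1.04, 1.16 and 0.91 RPM in the co-IPs, against 0.2, 0.28 and 0.11 RPM in the inputs, the only co-IP in which every library of this row lay above every input. Of the let-7 family, let-7-5p (0.59) and miR-241-5p (0.82) were higher in the co-IPs (limma), and miR-48-5p (0.34, limma adjusted p 0.21) and miR-84-5p (-0.42, limma adjusted p 0.12) did not pass. With rescaling, 3 of the 4 were higher.

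In the GFP::ALG-1 co-IPs on nrfl-1 RNAi, lin-4-5p was higher than in the inputs and miR-237-5p did not pass. lin-4-5p had 2363, 1755 and 2028 RPM in the co-IPs, against 1194, 1101 and 1106 RPM in the inputs (log2 fold change 0.84, SE 0.20, limma adjusted p 0.000461; 0.55 rescaled), 36th of 229 microRNA rows. miR-237-5p had 3494, 3144 and 2749 RPM in the co-IPs, against 2909.6, 2733 and 2790.4 RPM in the inputs (0.15, SE 0.17, limma adjusted p 0.405; -0.14 rescaled). miR-237-3p had 2.15, 1.49 and 2.04 RPM in the co-IPs, against 2.35, 2.4 and 2.04 RPM in the inputs (-0.18, SE 0.18, limma adjusted p 0.332). Rescaled, that row passed as lower in the co-IPs (-0.38, limma adjusted p 0.0402). The background was 97.5% of all features (98.1% rescaled) and 73.8% of microRNA rows. The median microRNA row lay at -0.51, below both guides. lin-4-3p was listed at 0, 0 and 0.09 RPM in the co-IPs, against 0.08, 0.32 and 0.25 RPM in the inputs.

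**Figure D3:**
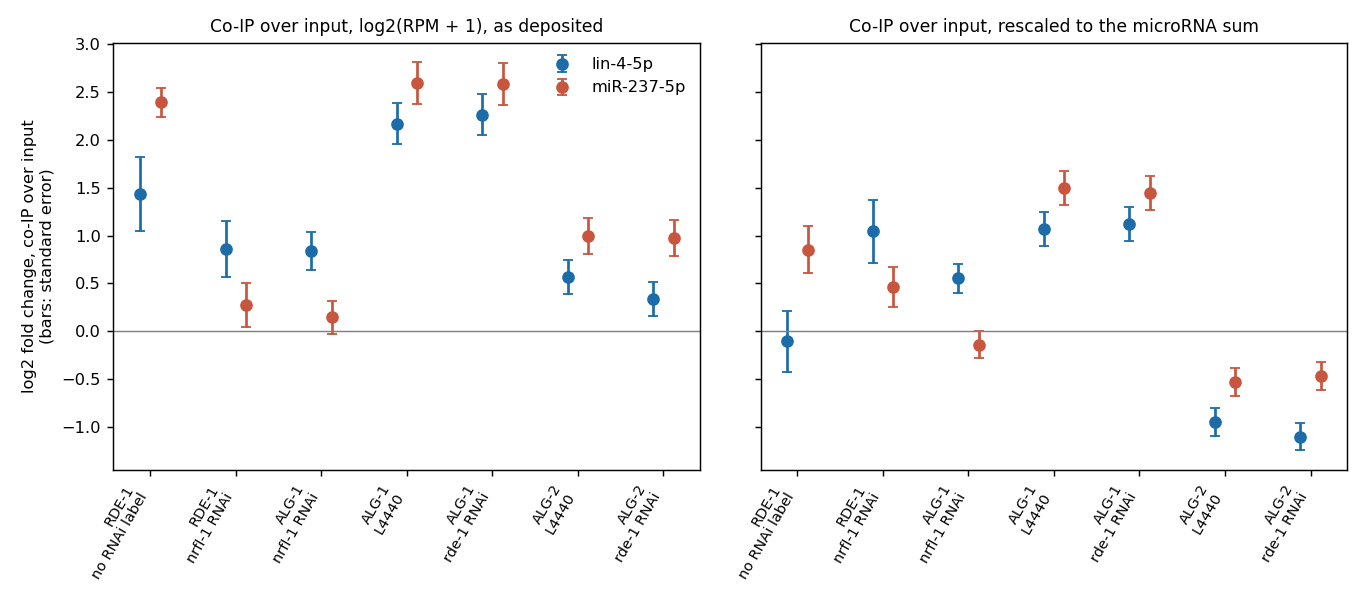
log2 fold change of co-IP over input for lin-4-5p (blue) and miR-237-5p (red), with standard errors, from RPM as deposited (left) and after rescaling each library to the same microRNA sum (right). Both guides stay above 0 in both panels for ALG-1 on L4440 and rde-1 RNAi, and both turn negative on the right for ALG-2.

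Both guides were lower in RPM on dcr-1 RNAi than on L4440. lin-4-5p had 359.9 and 352 RPM on dcr-1 RNAi, against 589 and 494 RPM on L4440 (log2 fold change -0.60, SE 0.07, limma adjusted p 5.13e-05). miR-237-5p had 1287 and 1229.6 RPM on dcr-1 RNAi, against 1771 and 1625 RPM on L4440 (-0.43, SE 0.06, limma adjusted p 8.9e-05). The groups did not overlap for either guide. MicroRNA rows held 32.9% and 34.7% of the listed RPM on dcr-1 RNAi, against 44.9% and 43.2% on L4440, and 50% of microRNA rows and 21.2% of all features passed. Rescaled to the microRNA sum, lin-4-5p was still lower (-0.23, limma adjusted p 0.0376) and miR-237-5p did not pass (-0.06, limma adjusted p 0.566), against 67.5% of all features.

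These calls also rested on the variance model: without a mean-variance trend the limma adjusted p was 0.13 for lin-4-5p and 0.132 for miR-237-5p, and with no filter on low values it was 0.083 and 0.0873. All 4 let-7 family guides were lower on dcr-1 RNAi (limma), between -0.55 and -0.28, and the median microRNA row was at -0.21. After rescaling, none of the 4 passed in either direction (median -0.08). miR-237-3p had 0.94 and 1.21 RPM on dcr-1 RNAi, against 1.08 and 0.89 RPM on L4440 (0.06, SE 0.26, limma adjusted p 0.872). lin-4-3p had 0.27 and 0.6 RPM on dcr-1 RNAi, against 0.56 and 0.47 RPM on L4440.

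The balance between the 2 family members can be read within a library as the ratio of lin-4-5p to miR-237-5p, which does not depend on how that library was scaled. It counts reads, with no correction for how well each sequence is ligated. In embryos the ratio was 0.267 and 0.307, against 3.00, 3.10 and 3.55 in adults, so miR-237-5p was the more abundant of the pair in embryos and lin-4-5p in these adults. The ratio averaged 2.88 ± 0.11 in rde-1(ne219) and 3.22 ± 0.29 in wild type (SD, n = 3 each), without overlap. It was lower in co-IPs than in inputs, without overlap, in 5 experiments. ALG-1 gave 1.52 ± 0.13 in co-IPs and 2.03 ± 0.077 in inputs on L4440, and 1.5 ± 0.099 and 1.87 ± 0.003 on rde-1 RNAi (SD, n = 2 each). ALG-2 gave 1.47 ± 0.015 in co-IPs and 1.97 ± 0.095 in inputs on L4440, and 1.29 ± 0.10 and 2.00 ± 0.12 on rde-1 RNAi. GFP::RDE-1 with no RNAi label gave 1.5 ± 0.70 in co-IPs and 2.78 ± 0.64 in inputs.

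In the experiments labelled nrfl-1 RNAi the ratio ran the other way, although the GFP::RDE-1 libraries with no RNAi label also carried nrfl-1 siRNAs. The ALG-1 co-IPs had 0.657 ± 0.091 and their inputs 0.403 ± 0.007 (SD, n = 3 each, no overlap), and the GFP::RDE-1 co-IPs had 0.315 ± 0.15 and their inputs 0.195 ± 0.043, which overlapped. The libraries of the dcr-1 RNAi table had 0.283 ± 0.0045 on dcr-1 RNAi and 0.318 ± 0.02 on L4440 (SD, n = 2 each). Adult inputs and whole-animal libraries thus fell into tables where lin-4-5p was the more abundant guide (ratios from 1.87 to 3.55 by library) and tables where miR-237-5p was (0.162 to 0.41), although all were labelled as gravid adults. The tables of the first kind were those of wild type and rde-1(ne219), of RDE-1 with no RNAi label, and of ALG-1 and ALG-2 on L4440 and rde-1 RNAi. The tables were processed separately, and the part of growth, food, strain, library treatment or processing in this was not tested. With 2 against 2 libraries the exact permutation test of the ratio cannot go below p = 0.333, and with 3 libraries in a group not below 0.1, so no difference in ratio could pass 0.05. The lowest adjusted p over the 12 comparisons was 0.364.

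**Figure D4:**
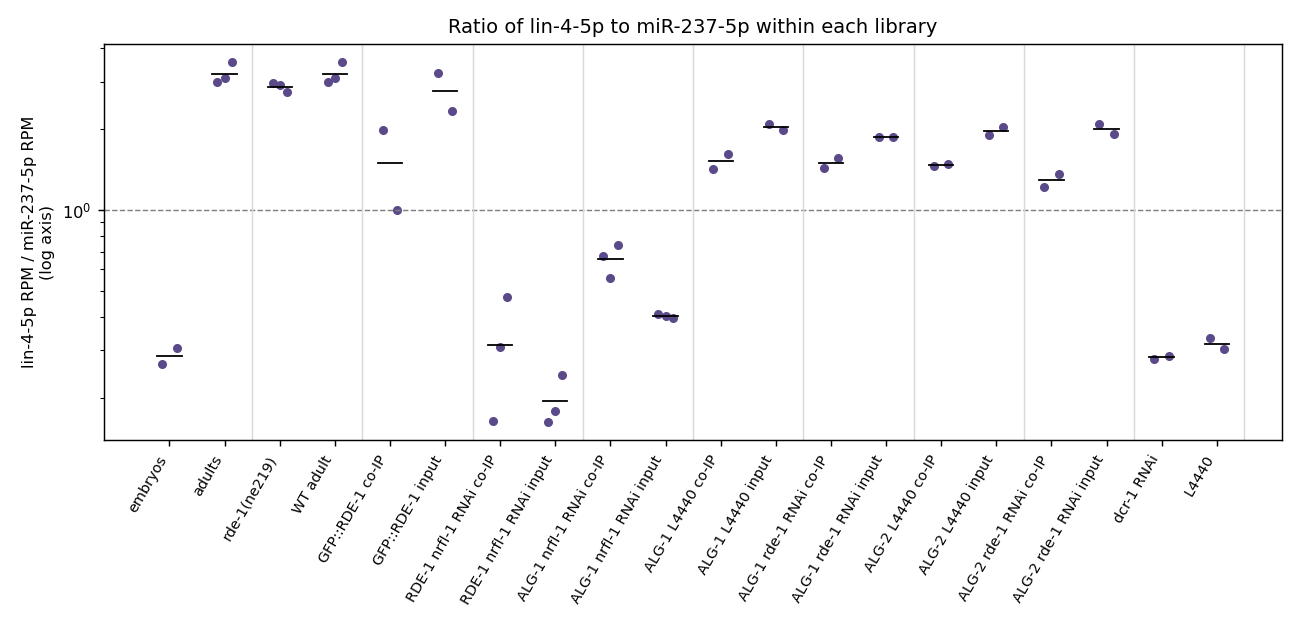
Ratio of lin-4-5p RPM to miR-237-5p RPM in each library on a log axis; points are libraries, bars group means and the dashed line equal abundance. Embryos and the libraries of the nrfl-1 and dcr-1 RNAi tables lie below the line, all the others at or above it, and the co-IPs from L4440 or rde-1 RNAi food lie below their inputs.

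The passenger share of miR-237 averaged lower in every ALG-1 and ALG-2 co-IP group than in its input, and the GFP::RDE-1 co-IPs lay above their inputs with no RNAi label and below them on nrfl-1 RNAi. With ALG-1 and rde-1 RNAi, miR-237-3p made up 0.0257% ± 0.0025 of both arms in co-IPs and 0.284% ± 0.018 in inputs (SD, n = 2 each), as it had on L4440. In ALG-2 co-IPs it made up 0.145% ± 0.014 on L4440, against 0.212% ± 0.07 in inputs, and 0.128% ± 0.039 on rde-1 RNAi, against 0.239% ± 0.044 in inputs. In GFP::RDE-1 co-IPs with no RNAi label it made up 0.448% ± 0.079, against 0.271% ± 0.035 in inputs. On nrfl-1 RNAi the RDE-1 co-IPs had 0.153% ± 0.044, against 0.26% ± 0.035 in inputs, and the ALG-1 co-IPs 0.061% ± 0.013, against 0.0805% ± 0.0073 in inputs (SD, n = 3 each). Libraries overlapped in the ALG-1 nrfl-1 RNAi pair and did not in the other co-IP pairs. dcr-1 RNAi gave 0.0856% ± 0.018 and L4440 0.0578% ± 0.0044 (SD, n = 2 each). The lowest exact permutation p of these shares, 0.1, is the smallest the design allows, and differences between Argonautes were not tested.

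**Figure D5:**
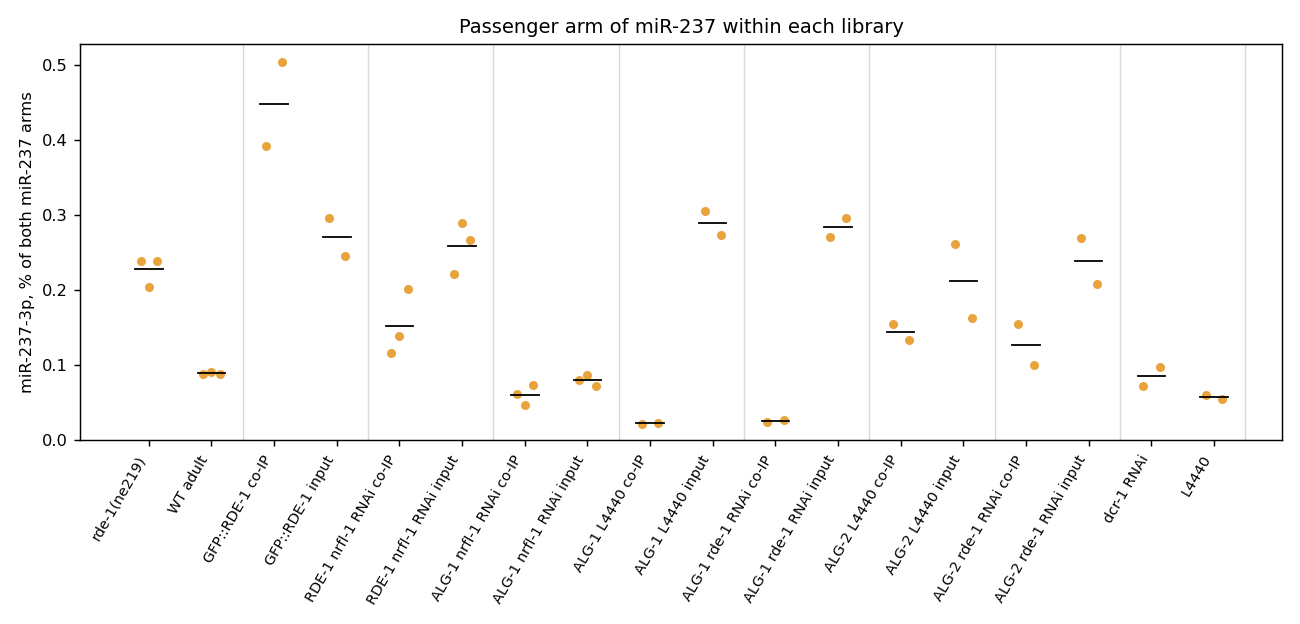
Percent of both miR-237 arms that was miR-237-3p in each adult library; points are libraries and bars group means, and embryos are left out because the arm had at most 0.13 RPM there. Lowest are the ALG-1 co-IPs from L4440 or rde-1 RNAi food, near 0.02%, and the GFP::RDE-1 co-IPs with no RNAi label highest, at 0.392% and 0.504%.

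Over all 44 distinct libraries, each guide was among the 3 microRNA rows most like the other, and miR-48-5p was near both. Likeness was the root-mean-square difference in log2(RPM + 1) after subtracting each row's mean within each table. It was taken among 93 other rows with at least 10 RPM on average in every table. The mean subtracted from the embryos included the 3 adult libraries set against them, which were then left out as repeats. For lin-4-5p the nearest rows were miR-237-5p (0.51), miR-48-5p (0.58) and miR-77-3p (0.71), where the median row was at 1.76. For miR-237-5p they were miR-48-5p at 0.39, then let-7-5p at 0.48, then lin-4-5p at 0.51, where the median row was at 1.49. All of these points share libraries, and the 2 embryo libraries weigh heavily in the measure because the guides differ most there.

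The mRNA libraries give mRNA levels of lin-4 targets in another rde-1 mutant, for which there is no small RNA library. They hold no protein levels, so repression by lin-4 was not tested. rde-1 itself had 0.923 ± 0.129 normalized counts in rde-1(ram40) and 1504 ± 115 in wild type (SD, n = 3 each; limma adjusted p 4.63e-11), which fits the label. lin-14 mRNA had 92.1, 118 and 73.4 normalized counts in rde-1(ram40), against 98.5, 109 and 88.7 in wild type, overlapping (log2 fold change -0.08, SE 0.19, limma adjusted p 0.972). lin-28 mRNA had 502, 494 and 500.5 in the mutant, against 448, 492 and 482 in wild type, without overlap, and did not pass (0.08, SE 0.10, limma adjusted p 0.904). Of 12 listed heterochronic genes, which set the timing of larval development, 10 were tested and none passed, and lin-29 and lin-46 lay below the filter of a mean of 10. The median log2 fold change of the tested ones was -0.04, against 0.02 over all genes.

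Other genes of that list did not pass either, and their libraries overlapped. hbl-1, a transcription factor that holds back later larval fates, averaged 120 ± 38 normalized counts in rde-1(ram40) and 132 ± 20.7 in wild type (SD, n = 3 each). lin-41, an RNA-binding protein and a let-7 target, averaged 3152 ± 167 and 3093 ± 564. lin-42, the worm relative of the period clock gene, had the largest difference of the tested list, at 15.6 ± 2.54 in the mutant and 27.4 ± 16.4 in wild type (-0.63, SE 0.38, limma adjusted p 0.716). All 9 genes of the microRNA machinery were tested and none passed: alg-1 averaged 227 ± 7.34 in rde-1(ram40) and 217 ± 16.1 in wild type, alg-2 585 ± 52.8 and 602 ± 38.4, and dcr-1 2890.1 ± 233 and 2910.3 ± 448 (SD, n = 3 each). Over all genes 0.362% passed (41 of 11331, and 895 at an unadjusted p under 0.05, limma). The genes of lin-4 and mir-237 have no row in the mRNA table used here. 22G-RNAs are secondary siRNAs made on mRNAs. Rows of 22G-RNAs for lin-28 had at most 1.64 RPM and those for lin-14, listed in 1 table, 0.28 to 0.77 RPM, averaging less than 1 RPM in each comparison, so they were not tested.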

How the data were processed

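Small RNA values are RPM, deposited in 8 tables, for which the authors ran tinyRNA and Python scripts of their own, per the labels and the series' design text. The denominator, genome build, tool versions and handling of reads that map to several places are not given in the sources used here, so no coordinates are printed, and no sequences, since no file used here holds them. Gel size selection preceded library construction, per the labels. Pyrophosphohydrolase treatment is named in the labels for 10 libraries: wild-type and rde-1(ne219) adults, and GFP::RDE-1 co-IPs and inputs with no RNAi label. The mRNA values are signal: normalized counts, not whole numbers, that the authors made with fastp, STAR, RSEM and DESeq2 and deposited, per the submitters' processing notes.

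Fits used limma 3.58.1 under R 4.3.3: linear models with empirical Bayes moderation and a mean-variance trend, two-sided, of log2(RPM + 1). For mRNA they used log2(normalized count + 1), keeping genes that averaged 10 or more. A fold change on these scales understates the change of low rows. Where a table held both L4440 and rde-1 RNAi, its 4 groups were fitted together and the difference between enrichments was an interaction term. Fits were also run on simulated data in which 200 features were changed. Far more than 200 features passed in the co-IPs, in embryos, in rde-1(ne219) and on dcr-1 RNAi, so that simulation does not check those comparisons. Ratios and arm shares were computed per library and compared by two-sided exact permutation. Depth was estimated from the step between low RPM values: 73.2% to 94.1% of values up to 2 RPM lay on a step, against 12.9% to 38.2% by spacing alone, so whole reads were not recovered and no count test was run. The limit given for a value of 0 is 3 reads and covers counting error only.

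Of the columns, 3 named a group but no single sample (1 of dcr-1 RNAi, numbered 3, and 2 inputs of RDE-1 nrfl-1 RNAi). In no comparison with 3 pairs did every same-numbered pair of libraries deviate together with r over 0.1, so numbers were not taken as pairs. One blank cell removed 1 feature from the ALG-1 nrfl-1 RNAi fits. mRNA symbols matched 27993 of 30122 gene IDs. Named rows were both arms of lin-4 and miR-237, 4 let-7 family and 8 mir-35 family guides, the 3 rows most like each guide, 12 heterochronic genes, 9 genes of the microRNA machinery, and siRNA rows of lin-14, lin-28 and the RNAi targets. These members and lists were chosen with earlier results of these data known. Alternatives were pseudocounts of 0.1 and 10, no filter and a filter of 10 RPM, median centring, rescaling to the microRNA sum, no trend, the replicate number as a block, fits of only the 2 groups compared, and leaving out each replicate.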

Additional observations from a re-analysis of the deposited data

Results flagged for a closer look

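In RPM as deposited, the values of miR-237-3p lay on opposite sides of the inputs in both experiments with GFP::RDE-1. With no RNAi label every co-IP lay above every input, and the log2 ratio of group means of RPM + 1 was 2.50. On nrfl-1 RNAi every co-IP lay below every input (-0.48, where the limma log2 fold change of -0.47 did not pass), a difference of 2.98. Both experiments carried nrfl-1 siRNAs. They differed in labelled library treatment, with pyrophosphohydrolase named only where no RNAi is labelled, and its part was not tested. The nrfl-1 RNAi value turned positive (0.79) with libraries centred on their median.

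On L4440 food, in the same RPM and by the same log2 ratio, every ALG-1 co-IP lay below its inputs for this row (-0.88). Every ALG-2 co-IP lay above its inputs (0.35, where the limma log2 fold change of 0.36 did not pass), a difference of -1.23. The opposite signs did not hold on other scales: rescaled to the microRNA sum both were negative (-1.76 for ALG-1 and -0.83 for ALG-2), and median-centred both were positive (1.81 and 3.06). The share of miR-237-3p in both miR-237 arms was lower in the co-IPs of both proteins. Neither difference was tested, since each pair comes from separate tables, and the row had at most 15.4 RPM.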

How the results depend on the processing

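Under alternatives that keep all libraries, 304 fold changes of these rows kept their direction and side of the threshold, 17 reversed, 10 gained and 6 lost a call. The replicate block changed none of the 36 calls it was fitted for, and moved the count of features by over 1.5 times in the ALG-2 inputs (58, 28 without it) and in the mRNAs (89, 41 without it). No paired analysis was possible for dcr-1 RNAi, because its columns share only number 1 with L4440. For RDE-1 on nrfl-1 RNAi, where 2 input columns could not be tied to a single sample, a block by the numbers in the column names was added after seeing the data. It changed no call of the 3 rows (lin-4-5p 0.86, limma adjusted p 0.00103) and gave 2906 features, against 2819, and its same-numbered libraries correlated at 0.27, 0.094 and 0.055. In rde-1(ne219) and wild type the same-numbered libraries correlated at 0.012, -0.21 and -0.072, and in no comparison with 3 pairs did every library correlate best with its own number. The co-IP and its input on ALG-2 L4440 deviated with opposite sign (r -0.14), and with the numbers crossed 3161 features passed, against 3170, an alternative chosen after seeing the data. Embryos over adults kept every guide call, as did ALG-1 on L4440 and on rde-1 RNAi. Rescaling to the microRNA sum gave 0.46 for miR-237-5p in rde-1(ne219), -0.10 for lin-4-5p in RDE-1 co-IPs with no RNAi label, -0.060 for miR-237-5p on dcr-1 RNAi and -0.14 for miR-237-5p in ALG-1 co-IPs on nrfl-1 RNAi. In ALG-2 co-IPs it gave -0.95 (lin-4-5p), -0.52 (miR-237-5p) and -0.83 (miR-237-3p) on L4440, and -1.10, -0.46 and -1.09 on rde-1 RNAi. It also reversed differences that had not passed: 0.060 for miR-237-5p in the ALG-2 interaction, and -0.017 and -0.040 for lin-4-5p and miR-237-5p in the ALG-2 inputs. Median centring lifts the co-IPs, since the median feature is lower there. It gave -0.018 for lin-4-5p in rde-1(ne219), 3.03 for lin-4-5p in ALG-2 on rde-1 RNAi, and 1.54 (RDE-1) and 2.25 (ALG-1) for miR-237-5p on nrfl-1 RNAi. For miR-237-3p it gave -0.14 on dcr-1 RNAi, 1.81 (L4440), 1.98 (rde-1 RNAi) and 1.93 (nrfl-1 RNAi) in ALG-1 co-IPs, 0.79 for RDE-1 with nrfl-1 RNAi, and 3.06 (L4440) and 2.73 (rde-1 RNAi) in ALG-2 co-IPs, where the row had not passed. The cause of the other changes was not tested. With no filter, calls were lost for lin-4-5p in RDE-1 co-IPs (1.43) and for both guides on dcr-1 RNAi (-0.60 and -0.43), the last 2 also with no trend. lin-4-5p in ALG-2 on rde-1 RNAi (0.34) passed with no filter, no trend or a pseudocount of 0.1. Leaving out 1 library at a time gave ranges of 0.17 to 0.40 for miR-237-5p in rde-1(ne219), 0.96 to 1.91 for lin-4-5p in RDE-1 with no RNAi label, 0.73 to 1.12 for it in RDE-1 on nrfl-1 RNAi and 0.49 to 0.65 for it in ALG-2 on L4440. For miR-237-3p they were -0.0065 to 0.16 on dcr-1 RNAi, 0.13 to 0.59 in ALG-2 on L4440, -0.25 to 0.33 in ALG-2 on rde-1 RNAi and -0.047 to 0.41 in the ALG-2 inputs. Interactions gave -0.076 to 0.27 (lin-4-5p, ALG-1), -0.11 to 0.10 (miR-237-5p, ALG-1) and -0.077 to 0.038 (miR-237-5p, ALG-2), the ALG-2 inputs -0.015 to 0.15 (lin-4-5p) and lin-14 mRNA -0.26 to 0.083. Differences in the log2 ratio ran from -0.036 to 0.082 in the ALG-2 inputs. Differences in the 5p share of miR-237, in percentage points, ran from -0.0099 to 0.022 in the ALG-1 inputs, -0.076 to 0.022 in the ALG-2 inputs and -3.90 to 0.0896 in embryos. Those of lin-4 ran from -0.0020 to 0.0021 in rde-1(ne219), -0.075 to 0.020 on dcr-1 RNAi and -0.0035 to 0.011 in the ALG-1 inputs. Counts of passing features moved by over 1.5 times as follows. A filter of 10 RPM gave 4712 (7152 as reported) in rde-1(ne219), 4537 (7424) in embryos, 4228 (8520) in RDE-1 with no RNAi label, and 814, 819, 753, 762, 399 and 545 (3434, 3433, 3170, 3172, 2819 and 3701) in the other co-IPs (ALG-1, then ALG-2, each on L4440 and rde-1 RNAi, then RDE-1 and ALG-1 on nrfl-1 RNAi). With no filter those 6 had 10944, 10141, 9938, 10559, 9550 and 12929. Median centring gave 3210 in RDE-1 with no RNAi label and 1564 and 2455 on nrfl-1 RNAi. On dcr-1 RNAi 1632 features became 31 with no filter, 9 with no trend, 798 centred and 5207 rescaled, and 94, 111 and 878 without L4440 replicate 1, dcr-1 RNAi replicate 1 and the dcr-1 RNAi column numbered 3. Interactions had 0 to 10 (12 as reported) and 4 to 16 (10) features when 1 library was left out, and 0 to 5 and 0 to 6 under the moved settings. Inputs had 2 to 22 (10) for ALG-1 and 6 to 154 (28) for ALG-2, and mRNAs 14 and 18 (41) without wild-type replicates 1 and 2. At these depths lin-4-3p, and miR-237-3p in embryos, rest on few reads.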
